A study of Mus musculus with 6 samples.

Results

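The regions described here are 95 stretches of the mouse genome at which the CUT&Tag signal for Arid3a was stronger in every siRNA-labelled library than in every NC-labelled library. They were chosen from 29602 regions that held a peak in all 6 libraries, and those from 79295 regions that held a peak in at least 1 library. For each shared region and library, the highest fold enrichment at a peak summit was divided by the median of that library's fold over the 29602 regions, which gives the relative fold used below. A region was a member if the lowest of the 3 siRNA-labelled values was at least 1.2 times the highest of the 3 NC-labelled values. The rule thus kept 0.321% of the shared regions, and its mirror image (lowest NC-labelled value at least 1.2 times the highest siRNA-labelled value) kept 106 regions, or 0.358%. Since the rule used the fold in all 6 libraries, the differences between the groups at these regions are given as a description, without a test.

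Primary vascular smooth muscle cells (VSMCs) of the mouse came from a commercial supplier, and each library was made from 10000 of them with an antibody to Arid3a. The siRNA-labelled libraries 1, 2 and 3 came from cells transfected with the siRNAs si-Arid3a#1, si-Arid3a#2 and si-Arid3a#3, and the NC-labelled libraries 1, 2 and 3 from cells given a negative control. Transfection lasted 24 h in all cells. The labels describe a 36 h angiotensin II model of abdominal aortic aneurysm (AAA) with a medium-only control, without giving the exposure of each library, and leave unsaid whether replicate libraries were separate cultures. Peaks inside all 6 lists are named after the opposite group, with the matching number. The sample labels were followed, and every direction given here would be inverted if the naming inside the lists were the right one.

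ARID3A is a transcription factor that binds AT-rich DNA through its AT-rich interaction domain (ARID) and was first described as a regulator of the immunoglobulin heavy chain gene in B cells. VSMCs contract the vessel wall, and in injured or aneurysmal vessels they can lose contractile gene expression and turn to proliferation, inflammation and matrix remodelling. In CUT&Tag, an antibody on the chromatin-bound protein tethers a transposase that cuts and tags the DNA around it. A peak therefore marks DNA near the antibody, and its fold compares the fragments at the summit with the local background of the same library.

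The lists held 43834, 50333 and 51682 peaks in siRNA-labelled libraries 1 to 3, against 47789, 49653 and 50047 in NC-labelled libraries 1 to 3. The background coverage of the lists was 0.475, 0.482 and 0.538 fragments per base in the siRNA-labelled libraries and 0.670, 0.673 and 0.621 in the NC-labelled libraries, so coverage differed between the groups without overlap. The median fold over the shared regions was 6.93, 7.59 and 7.57 in the siRNA-labelled libraries and 7.33, 7.59 and 7.35 in the NC-labelled libraries. Of the smooth muscle markers, Acta2, Tagln, Smtn and Lmod1 had a peak at a gene end in 6 of 6 lists, Cnn1 in 4 and Myh11 in 0. Of the endothelial, immune, epithelial and neuronal markers, Pecam1, Cdh5, Ptprc, Cd3e, Epcam, Krt8, Rbfox3 and Syp had such a peak in 0 lists, Kdr in 1, Tek in 4 and Cd68 in 6. Occupancy is not expression, and none of these peaks measures the knockdown of Arid3a. No library made without the Arid3a antibody was analysed here.

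**Figure D1:**
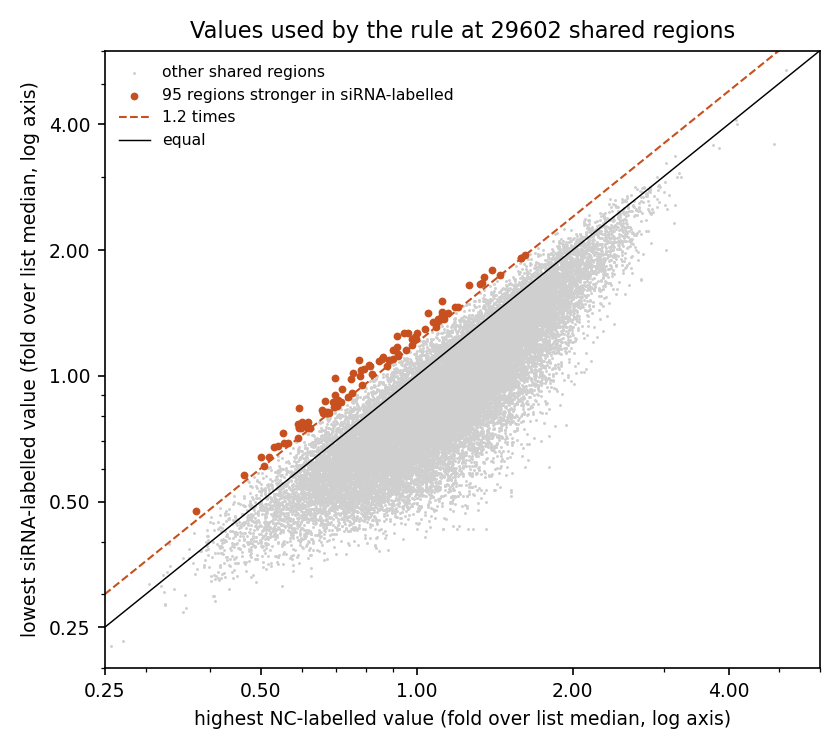
Lowest siRNA-labelled relative fold (y axis) against highest NC-labelled relative fold (x axis) at the 29602 shared regions, both on log axes. The 95 members (coloured) lie on or above the dashed line at 1.2 times. No member had a relative fold above 2.28 in any library, while shared regions reached 5.61.

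Of the 95 regions, 18 lay at a gene end (within 1000 bp of either end of a protein-coding gene), 42 inside a gene and 35 outside genes. On the chromosomes for which promoter sequence was used, 16 of 92 regions overlapped a promoter window, the stretch from 250 bases before to 50 bases after a RefSeq start site. Sequences of 6 of those windows are given because they show the DNA under the promoter regions with the highest ratio. They belong to the 5 highest gene-end regions with a promoter window and to Zbtb11. Zbtb11 was added after its values were seen, since the gene table places its region inside the gene although it lies over a start site. Each is 300 bases of RefSeq (GRCm38.p6, the assembly of mm10), read 5′ to 3′ on the strand of the gene. Capitals mark matches on either strand to the 12 motifs searched, among them CCGGAAGT (of ETS factors), CACGTG (E-box), TGACGTCA (cyclic AMP response element), GGGCGG (Sp1 and KLF) and CCAAT.
Zbtb11, chr16:55973554-55973853, plus strand: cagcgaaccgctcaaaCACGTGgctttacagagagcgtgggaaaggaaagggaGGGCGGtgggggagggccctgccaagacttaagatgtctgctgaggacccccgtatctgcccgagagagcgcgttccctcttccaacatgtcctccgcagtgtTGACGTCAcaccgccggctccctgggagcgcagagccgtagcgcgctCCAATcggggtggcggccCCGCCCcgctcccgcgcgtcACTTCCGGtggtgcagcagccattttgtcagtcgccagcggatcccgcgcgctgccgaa
Efcab12, chr6:115838363-115838662, minus strand: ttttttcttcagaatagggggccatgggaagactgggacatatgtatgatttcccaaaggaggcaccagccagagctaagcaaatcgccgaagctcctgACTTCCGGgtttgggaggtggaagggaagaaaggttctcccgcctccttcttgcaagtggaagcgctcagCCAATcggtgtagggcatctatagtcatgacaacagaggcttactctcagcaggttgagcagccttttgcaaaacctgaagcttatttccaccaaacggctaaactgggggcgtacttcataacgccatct
Mob1b, chr5:88720621-88720920, plus strand: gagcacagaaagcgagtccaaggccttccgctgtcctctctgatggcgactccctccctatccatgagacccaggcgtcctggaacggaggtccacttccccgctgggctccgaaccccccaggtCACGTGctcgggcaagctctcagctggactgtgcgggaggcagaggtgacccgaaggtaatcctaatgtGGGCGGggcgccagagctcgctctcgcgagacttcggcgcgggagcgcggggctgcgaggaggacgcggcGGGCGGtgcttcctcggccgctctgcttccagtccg
Armc9, chr1:86154530-86154829, plus strand: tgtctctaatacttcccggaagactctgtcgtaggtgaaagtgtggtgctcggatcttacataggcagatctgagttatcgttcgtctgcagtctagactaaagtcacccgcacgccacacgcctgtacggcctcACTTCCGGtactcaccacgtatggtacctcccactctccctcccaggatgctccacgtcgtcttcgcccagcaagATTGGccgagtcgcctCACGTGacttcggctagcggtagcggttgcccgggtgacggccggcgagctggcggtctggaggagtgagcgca
Ranbp6, chr19:29812925-29813224, minus strand: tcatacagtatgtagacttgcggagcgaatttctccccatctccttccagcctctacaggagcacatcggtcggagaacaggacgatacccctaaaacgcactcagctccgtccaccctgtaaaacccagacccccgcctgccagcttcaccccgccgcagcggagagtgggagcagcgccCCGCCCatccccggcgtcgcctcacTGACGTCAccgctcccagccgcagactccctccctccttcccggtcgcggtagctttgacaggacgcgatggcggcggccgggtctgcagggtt
Zfp961, chr8:71950816-71951115, plus strand: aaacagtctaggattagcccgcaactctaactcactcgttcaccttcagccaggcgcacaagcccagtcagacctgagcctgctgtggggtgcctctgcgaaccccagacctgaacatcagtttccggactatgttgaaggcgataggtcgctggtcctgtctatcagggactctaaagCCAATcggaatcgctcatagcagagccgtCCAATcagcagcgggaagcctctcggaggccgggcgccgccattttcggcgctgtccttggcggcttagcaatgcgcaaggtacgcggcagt

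The 6 windows share no single motif. The ETS-type match CCGGAAGT stood in the windows of Zbtb11, Efcab12 and Armc9, and the E-box CACGTG in those of Zbtb11, Mob1b and Armc9. In the Zbtb11 window the ETS-type match began 9 bases upstream of the start site, and a match to TGACGTCA began 94 bases upstream. Ranbp6 held the other TGACGTCA, 44 bases upstream. Zfp961 held CCAAT at 71 and at 42 bases upstream and no other motif searched.

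Over all 16 promoter regions, CCGGAAGT was found in 6 (37.5%), against 10.1% of the 7156 shared regions over promoter windows. The other regions with it were those of Dhx8, Psme4 and Taf12. CACGTG was likewise found in 6 (37.5%, against 11.8%), those of Zbtb11, Mob1b, Armc9, Taf12, Nupr1 and Cgref1. This motif is its own reverse complement, so a match counts on both strands. At Nupr1 the summits lay at -984 to -910 bp from the start site, outside the window that holds the match. TGACGTCA stood in 2 (12.5%, against 3.91%), GGGCGG in 11 (68.8%, against 73.5%) and CCAAT in 7 (43.8%, against 43.4%). TGANTCA (AP-1), GGAATG (TEAD) and TATAAA each stood in 1 (6.25%, against 5.48%, 12.2% and 6.47% in that order). ATTAAA and TTAATT, the AT-rich motifs of the ARID3A type, were found in 0 of the 16, against 7.17% and 5.65%, and neither the NRF1 palindrome nor the CArG box (SRF), both searched by name, was found, against 2.74% and 1.38%. Among all 21263 promoter windows of RefSeq, CCGGAAGT was found in 5.15% and CACGTG in 7.84%. With 16 regions each share moves by several percent per region, and no test was made. The 21 windows under the 16 regions had a median GC content of 65.3% (50.7% to 73.7%), against 62.3% in the windows of all shared regions and 56.3% in all windows.

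Zbtb11, which encodes a zinc finger and BTB domain protein, had the highest ratio of the 16 promoter regions (chr16:55973400-55973854). Its relative fold was 0.988, 0.838 and 1.03 in siRNA-labelled libraries 1 to 3, against 0.460, 0.484 and 0.594 in NC-labelled libraries 1 to 3. The summit held 30, 31 and 39 in siRNA-labelled libraries 1 to 3, against 21, 25 and 28 in NC-labelled libraries 1 to 3, in fragments. The fragments and the relative fold were higher in each siRNA-labelled library than in any NC-labelled library, by a ratio of 1.41 between the nearest values of the relative fold. The local background at the summit, in fragments, was 3.53, 4.03 and 4.11 in the siRNA-labelled libraries and 5.52, 6.08 and 5.65 in the NC-labelled libraries, so it was lower in each siRNA-labelled library than in any NC-labelled library.

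Efcab12 encodes a protein with EF-hand domains. Its region (chr6:115838222-115838651) had a relative fold of 1.247, 1.27 and 1.47 in siRNA-labelled libraries 1 to 3, against 0.893, 0.916 and 0.900 in NC-labelled libraries 1 to 3. The summits lay within 41 bp of each other, between 19 and 60 bp downstream of the start site. The fragments overlapped between the groups, at 18, 22 and 26 in the siRNA-labelled libraries and 17, 20 and 17 in the NC-labelled libraries. The local background was 1.198, 1.39 and 1.43 in the siRNA-labelled libraries and 1.75, 2.02 and 1.72 in the NC-labelled libraries. A lower mean background in the siRNA-labelled libraries was found at 98.9% of shared regions. With fragments divided by the background coverage of the list, the groups did not overlap at Efcab12, by a ratio of 1.28 between the nearest values.

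Mob1b encodes a coactivator of the LATS kinases in the Hippo pathway. Its region (chr5:88720567-88721223) had a relative fold of 1.201, 1.03 and 1.43 in siRNA-labelled libraries 1 to 3, against 0.760, 0.781 and 0.778 in NC-labelled libraries 1 to 3, with a ratio of 1.32. The highest value, in siRNA-labelled library 3, came from 41 fragments, against 25 to 27 in the other siRNA-labelled libraries and 22 to 24 in the NC-labelled libraries. In 5 of 6 libraries the summit lay 100 to 103 bp upstream of the start site, and in NC-labelled library 2 it lay 65 bp downstream. The E-box of this window begins 125 bases upstream.

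Armc9, a gene of ciliary function, had a relative fold of 1.21, 1.13 and 1.11 in the siRNA-labelled libraries and 0.806, 0.839 and 0.862 in the NC-labelled libraries (chr1:86154046-86155023). Ranbp6 encodes an importin-like Ran-binding protein, and its region (chr19:29812550-29813404) had a relative fold of 1.14, 1.099 and 1.08 in the siRNA-labelled libraries and 0.727, 0.845 and 0.777 in the NC-labelled libraries. The Armc9 summit held 27, 24 and 28 fragments in the siRNA-labelled libraries and 23, 22 and 24 in the NC-labelled libraries. Ranbp6 passed the rule with lower counts, 15, 15 and 13 fragments in the siRNA-labelled libraries and 10, 14 and 11 in the NC-labelled libraries. Zfp961, a zinc finger gene, had one of the strongest signals among the members (chr8:71950561-71951353), with a relative fold of 1.79, 1.95 and 2.12 in the siRNA-labelled libraries and 1.401, 1.32 and 1.39 in the NC-labelled libraries. Its summit was at the same base, 52 bp upstream of the start site, in all 3 siRNA-labelled libraries and in NC-labelled library 3, and 141 bp upstream and 70 bp downstream in NC-labelled libraries 1 and 2.

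The remaining promoter regions had smaller ratios. Radil, an effector of Rap GTPases, had a ratio of 1.253, with a relative fold of 0.929, 0.865 and 0.908 in the siRNA-labelled libraries and 0.690, 0.652 and 0.558 in the NC-labelled libraries. Dhx8 encodes a DEAH-box helicase of the spliceosome, and its region had 1.44, 1.60 and 1.39 in the siRNA-labelled libraries and 1.04, 1.04 and 1.13 in the NC-labelled libraries. Psme4, the gene of the proteasome activator PA200, had 1.57, 1.41 and 1.55 in the siRNA-labelled libraries and 1.101, 1.15 and 1.08 in the NC-labelled libraries. The Radil window held GGGCGG, the Dhx8 window CCGGAAGT and the Psme4 window both. Among shared regions over promoter windows, GGGCGG stood in 73.5% and CCGGAAGT in 10.1%.

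Taf12 encodes a subunit of the general transcription factor TFIID. Its relative fold was 0.759, 0.765 and 0.752 in the siRNA-labelled libraries and 0.569, 0.589 and 0.618 in the NC-labelled libraries, while its fragments ran the other way on average, at 30, 31 and 34 in the siRNA-labelled libraries and 35, 36 and 31 in the NC-labelled libraries. Tcf19 shares its region, 1598 bp wide and the widest of the 95, with 2 RefSeq start sites of Cchcr1 on the other strand, and had a relative fold of 0.868, 0.872 and 0.866 in the siRNA-labelled libraries and 0.665, 0.660 and 0.714 in the NC-labelled libraries. Gle1, an mRNA export factor, had 1.37, 1.402 and 1.63 in the siRNA-labelled libraries and 1.06, 1.04 and 1.13 in the NC-labelled libraries. Nupr1, a stress-induced nuclear protein gene, had 1.00, 0.951 and 0.966 in the siRNA-labelled libraries and 0.730, 0.752 and 0.785 in the NC-labelled libraries, with summits at -984 to -910 bp from its start site, upstream of the window searched for motifs.

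The last of the promoter regions were those of Sugct, Dzank1 and Cgref1. Sugct, whose product is a mitochondrial CoA-transferase, had a relative fold of 2.01, 2.16 and 1.95 in the siRNA-labelled libraries and 1.62, 1.62 and 1.38 in the NC-labelled libraries. This region also covers the start site of Mplkip on the opposite strand. Its summits lay at -371 to -312 bp from the Sugct start and -336 to -277 bp from the Mplkip start, outside both windows searched for motifs. Dzank1, which shares its region with the start of Polr3f (a subunit of RNA polymerase III), had 2.16, 1.95 and 1.75 in the siRNA-labelled libraries and 1.32, 1.43 and 1.45 in the NC-labelled libraries. Cgref1 had the most fragments of the 95 regions, 105, 124 and 134 in the siRNA-labelled libraries and 132, 149 and 129 in the NC-labelled libraries, and its relative fold was 1.35, 1.31 and 1.33 in the siRNA-labelled libraries and 1.06, 1.09 and 1.09 in the NC-labelled libraries. Its raw fragments in siRNA-labelled libraries 1 and 2 were lower than in any NC-labelled library, while its local background was 10.3, 11.6 and 12.4 in the siRNA-labelled libraries and 16.1, 17.2 and 15.2 in the NC-labelled libraries.

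**Figure D2:**
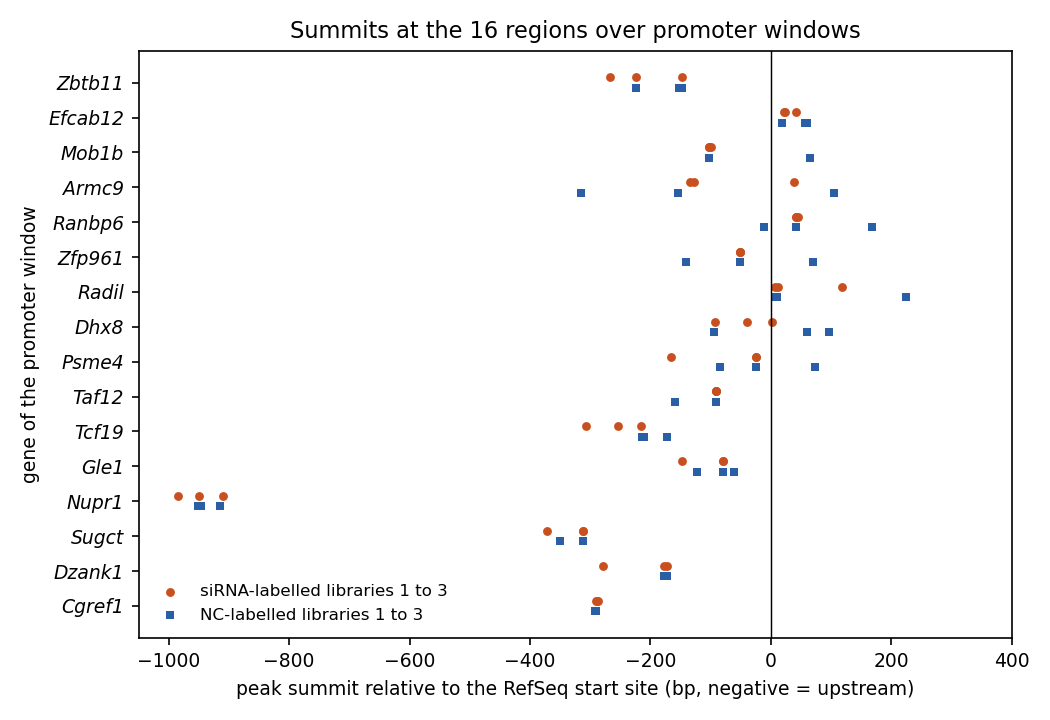
Summit position relative to the RefSeq start site in bp (x axis, negative is upstream) for the 16 regions over promoter windows, by gene from the highest to the lowest ratio. Circles are siRNA-labelled and squares NC-labelled libraries. Apart from Nupr1, with a median near -950 bp, the summits lie between -371 and 224 bp.

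The gene-end regions of Efl1, Eps8 and Neil2 overlapped no promoter window. Efl1 encodes a GTPase that acts in maturation of the large ribosomal subunit. Its region (chr7:82649181-82649623) lay 567 bp from a start site, and had a relative fold of 1.52, 1.53 and 1.51 in siRNA-labelled libraries 1 to 3, against 1.12, 1.04 and 1.09 in NC-labelled libraries 1 to 3. The values lay close together within each group, with 20, 24 and 25 fragments in the siRNA-labelled libraries and 17, 18 and 18 in the NC-labelled libraries. Eps8, an actin-capping signalling adaptor, and Neil2, a DNA glycosylase of base excision repair, had regions 479 and 912 bp from a gene end. The nearest start sites in the promoter table were 86164 and 148075 bp away. That table lacks some start sites, since the Bnip3l region lay 7660 bp from its nearest gene but 2526216 bp from any listed start. Nearer start sites of Eps8 and Neil2 may thus be missing. Their relative folds were 0.970, 0.956 and 0.820 in the siRNA-labelled libraries and 0.571, 0.669 and 0.668 in the NC-labelled libraries for Eps8, and 1.07, 0.931 and 0.844 in the siRNA-labelled libraries and 0.664, 0.689 and 0.692 in the NC-labelled libraries for Neil2.

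Only 3 of the 95 regions had a ratio above 1.4, those of Arhgap26, Tmem17 and Zbtb11. Another 14 had a ratio between 1.3 and 1.4, 30 between 1.25 and 1.3, and 48 between 1.2 and 1.25. The ratios ran from 1.2003 to 1.421, with a median of 1.2497. Among all shared regions, groups without overlap and with the siRNA-labelled libraries higher were found at 2573 regions (8.69%), and with the siRNA-labelled libraries lower at 1661 (5.61%), so the members are the upper edge of a larger group of regions.

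**Figure D3:**
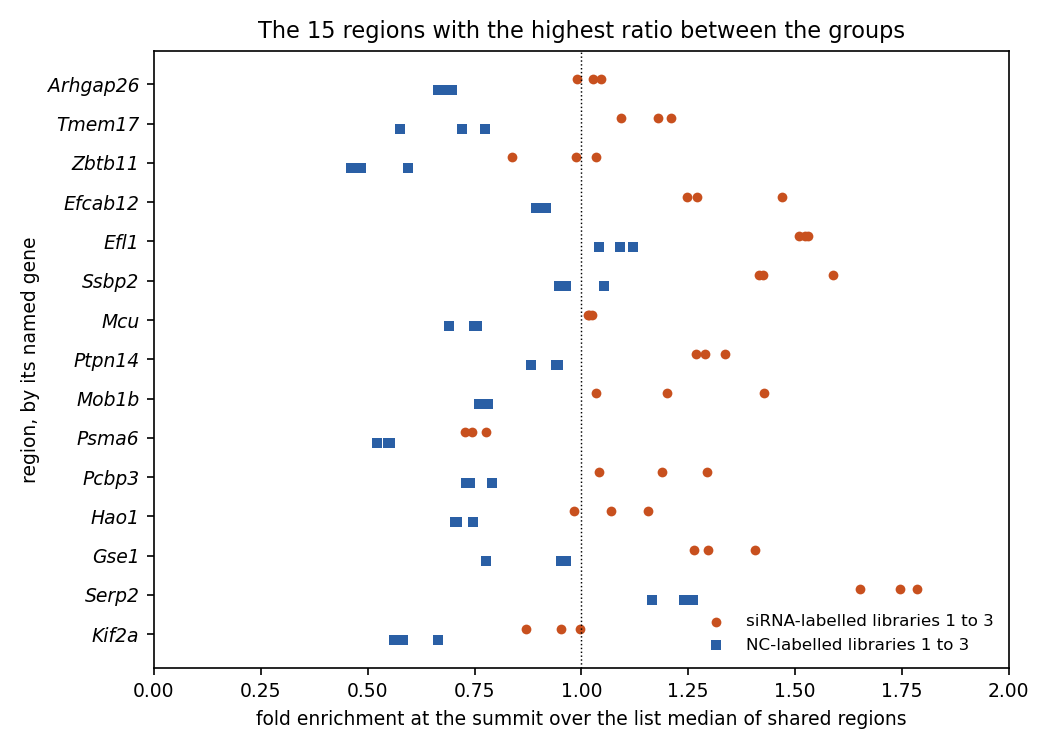
Relative fold (x axis, fold at the summit over the library's median of shared regions, dotted line at 1) in each library for the 15 regions with the highest ratio, from 1.42 (Arhgap26, top) to 1.31 (Kif2a, bottom). Circles are siRNA-labelled and squares NC-labelled libraries, 3 each, and the groups do not overlap, as the rule requires.

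Inside genes, Arhgap26 had the highest ratio of all members (1.42). It encodes a GTPase-activating protein and lies on chromosome 18, with the region 344890 bp from the nearer gene end. The relative fold was 0.991, 1.03 and 1.05 in siRNA-labelled libraries 1 to 3, against 0.697, 0.664 and 0.682 in NC-labelled libraries 1 to 3, and its summit held 15, 15 and 19 in the siRNA-labelled libraries and 11, 11 and 11 in the NC-labelled libraries fragments. Each group was narrow, and the local background overlapped between the groups, at 1.33, 1.05 and 1.53 in the siRNA-labelled libraries and 1.35, 1.38 and 1.395 in the NC-labelled libraries fragments.

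Ssbp2, whose product is a cofactor of LDB1 complexes, held a region 3544 bp inside the gene (chr13:91702199-91702631), with a relative fold of 1.41, 1.43 and 1.59 in the siRNA-labelled libraries and 0.963, 1.05 and 0.948 in the NC-labelled libraries. Ptpn14 encodes a tyrosine phosphatase that binds YAP, and its region (chr1:189867098-189868417) had 1.34, 1.27 and 1.29 in the siRNA-labelled libraries and 0.941, 0.946 and 0.881 in the NC-labelled libraries. Psma6, a subunit of the proteasome core, had the lowest siRNA-labelled values of the 15 highest ratios, with 0.728, 0.778 and 0.744 in the siRNA-labelled libraries and 0.521, 0.549 and 0.551 in the NC-labelled libraries (chr12:55392077-55392475). At Psma6 the fragments overlapped between the groups, at 49, 54 and 58 in the siRNA-labelled libraries and 51, 58 and 46 in the NC-labelled libraries, over a high local background of 8.90, 8.31 and 9.47 in the siRNA-labelled libraries and 12.6, 13.2 and 10.6 in the NC-labelled libraries fragments.

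Pcbp3, an RNA-binding protein gene, held a region 87241 bp inside (chr10:76873865-76874876), with a relative fold of 1.19, 1.04 and 1.29 in the siRNA-labelled libraries and 0.739, 0.790 and 0.731 in the NC-labelled libraries. The Gse1 region (chr8:120416584-120417304) had 1.26, 1.296 and 1.41 in the siRNA-labelled libraries and 0.778, 0.952 and 0.964 in the NC-labelled libraries. NC-labelled library 1 stood apart from the other NC-labelled libraries at Gse1. The 2 strongest regions inside genes by their lowest siRNA-labelled value were those of Sfswap and Sema4b. Sfswap encodes a splicing regulator, and its region had 1.91, 2.28 and 2.03 in the siRNA-labelled libraries and 1.42, 1.54 and 1.59 in the NC-labelled libraries (chr5:129533507-129534249). Sema4b, a semaphorin gene, had 1.78, 1.84 and 1.72 in the siRNA-labelled libraries and 1.32, 1.31 and 1.35 in the NC-labelled libraries (chr7:80207187-80207920). Ccdc57, a centrosomal protein gene, had 1.67, 1.66 and 1.78 in the siRNA-labelled libraries and 1.14, 1.13 and 1.32 in the NC-labelled libraries (chr11:120905390-120905836).

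Outside genes, the highest ratio was at a region 73160 bp from Tmem17, which encodes a membrane protein of the ciliary transition zone (chr11:22438620-22439123). The relative fold there was 1.18, 1.09 and 1.21 in siRNA-labelled libraries 1 to 3, against 0.773, 0.720 and 0.575 in NC-labelled libraries 1 to 3. NC-labelled library 3 was the lowest, with 15 fragments at the summit, while NC-labelled libraries 1 and 2 had 21 and 26, and the siRNA-labelled libraries had 29, 28 and 35. Naming a region by the nearest gene does not say that it acts on that gene.

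Mcu encodes the pore of the mitochondrial calcium uniporter. The region 24640 bp from it (chr10:59642049-59643003) had a relative fold of 1.02, 1.02 and 1.01 in the siRNA-labelled libraries and 0.755, 0.690 and 0.748 in the NC-labelled libraries, nearly identical across the siRNA-labelled libraries. The region nearest Hao1, a peroxisomal oxidase gene of liver, lay 77263 bp away (chr2:134419451-134420098) and had 0.982, 1.16 and 1.07 in the siRNA-labelled libraries and 0.704, 0.709 and 0.746 in the NC-labelled libraries, from only 10 to 12 fragments in the siRNA-labelled libraries and 8 to 9 in the NC-labelled libraries. Serp2, a gene of the endoplasmic reticulum translocation site, had a strong region 22592 bp away (chr14:76579666-76580114), with 1.65, 1.74 and 1.79 in the siRNA-labelled libraries and 1.17, 1.26 and 1.24 in the NC-labelled libraries. Kif2a, a microtubule-depolymerising kinesin, was nearest to a region 72827 bp away (chr13:107095182-107095640), with 0.998, 0.952 and 0.871 in the siRNA-labelled libraries and 0.665, 0.561 and 0.583 in the NC-labelled libraries. Its summit held only 12, 13 and 12 fragments in the siRNA-labelled libraries and 8, 7 and 8 in the NC-labelled libraries.

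Among the strongest regions outside genes, that of Diras2, a Ras-family GTPase gene, lay 48532 bp away (chr13:52455034-52455843) and had a relative fold of 1.67, 1.90 and 1.93 in the siRNA-labelled libraries and 1.23, 1.34 and 1.11 in the NC-labelled libraries. It also had the largest difference in log2 fragments of the 95, with 30, 36 and 41 in the siRNA-labelled libraries and 19, 23 and 16 in the NC-labelled libraries fragments, and its local background was 1.68, 1.57 and 1.87 in the siRNA-labelled libraries and 1.22, 1.36 and 1.08 in the NC-labelled libraries.

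Several other regions lay near genes with known roles in vessels or in the cytoskeleton. They were picked after their values were seen, and nothing is read from them as a group. Notch3 encodes the Notch receptor of arterial smooth muscle. The region 22567 bp from it (chr17:32097457-32098253) had a relative fold of 0.781, 0.755 and 0.762 in the siRNA-labelled libraries and 0.488, 0.544 and 0.594 in the NC-labelled libraries, from 12 to 15 fragments in the siRNA-labelled libraries and 9 to 12 in the NC-labelled libraries. Thbd, the thrombomodulin gene, had 0.885, 0.817 and 0.813 in the siRNA-labelled libraries and 0.671, 0.623 and 0.623 in the NC-labelled libraries at a region 1841 bp away. Mical2, an actin-oxidising enzyme gene, had 0.843, 0.765 and 0.775 in the siRNA-labelled libraries and 0.552, 0.599 and 0.540 in the NC-labelled libraries, and Ano6, a phospholipid scramblase gene, had 1.51, 1.43 and 1.37 in the siRNA-labelled libraries and 1.08, 1.03 and 1.10002 in the NC-labelled libraries. At Ano6 the region held 2 peaks in each siRNA-labelled library and 1 in each NC-labelled library, as did the region nearest Foxa2.

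The limit of 1.2 cut through a continuous run of values. Just inside it lay the regions of Ctnnbip1, Cgref1, Kank1 and Zc3h3, with ratios of 1.20082 to 1.20256. Just outside lay regions of Slc35f6, Dclk1, Marcks, Septin9 and Dnm2, with ratios of 1.19684 to 1.19982. Slc35f6, the first outside, had a relative fold of 0.920, 0.732 and 0.864 in the siRNA-labelled libraries and 0.570, 0.610 and 0.526 in the NC-labelled libraries.

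The members included few of the strongest shared regions. Their median relative fold was 1.06, 1.08 and 1.08 in siRNA-labelled libraries 1 to 3, against 0.755, 0.720 and 0.731 in NC-labelled libraries 1 to 3, where 1 is the median shared region. The median deposited fold was 7.34, 8.22 and 8.19 in the siRNA-labelled libraries and 5.53, 5.46 and 5.37 in the NC-labelled libraries. They thus stood slightly above a typical shared region in the siRNA-labelled libraries and below it in the NC-labelled libraries. The rule chose regions by this fold, so a gap between the groups was built in. Of all peaks of a list ranked by −log10 q, the median member stood at percentile 72.7, 74.4 and 75.5 in the siRNA-labelled libraries and 51.0, 53.9 and 53.4 in the NC-labelled libraries, while the median shared region stood between 65.6 and 70.7 in all 6. At percentile 75 or above in all 6 lists were 11 members (11.6%), against 26.8% of shared regions. Among the 11 were the regions of Cgref1, Sugct, Ano6, Sema4b, Sfswap, Nupr1, Lims1, Dzank1, Psme4 and Zfp961. Below percentile 25 in at least 1 list were 24 members (25.3%), against 18.6%. Both counts take in the NC-labelled lists, in which the rule favours low folds, so they follow in part from the rule.

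The fold is a ratio, so its parts were looked at separately, as solved from the deposited fold and p-value of each summit. The median summit of the members held 24, 25 and 27 fragments in siRNA-labelled libraries 1 to 3, against 20, 22 and 19 in NC-labelled libraries 1 to 3. Over all shared regions the order was the other way, at 21, 24 and 26 in the siRNA-labelled libraries and 29, 30 and 28 in the NC-labelled libraries. The difference of the group means of log2(fragments + 1), siRNA-labelled minus NC-labelled, had a median of 0.26 over the members and -0.29 over all shared regions. It was above 0 at 89 of 95 members, against 11.2% of shared regions. The 6 below 0 were the regions of Cgref1, Nupr1, Thbd, Taf12, Filip1l and Tbc1d22a.

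The local background of the members was 2.10, 2.05 and 2.26 fragments in the siRNA-labelled libraries and 2.66, 2.69 and 2.55 in the NC-labelled libraries, in medians. Over all shared regions it was 2.12, 2.18 and 2.43 in the siRNA-labelled libraries and 3.02, 3.04 and 2.81 in the NC-labelled libraries. On the scale of log2(background + 1) the difference between the group means had a median of -0.23 over the members and -0.29 over all shared regions. It was below 0 at 88 of 95 members and at 98.9% of shared regions. At 7 members the mean background was higher in the siRNA-labelled libraries, and the largest such difference, 0.29, was at the region of Diras2. The median log2 difference in fold before scaling was 0.48 over the members and 0.01 over all shared regions. The rule used the scaled fold. Over the members, the medians of its parts were 0.26 for fragments and -0.23 for background. Over all shared regions both parts were lower, at -0.29 each, so a lower background was not particular to the members.

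**Figure D4:**
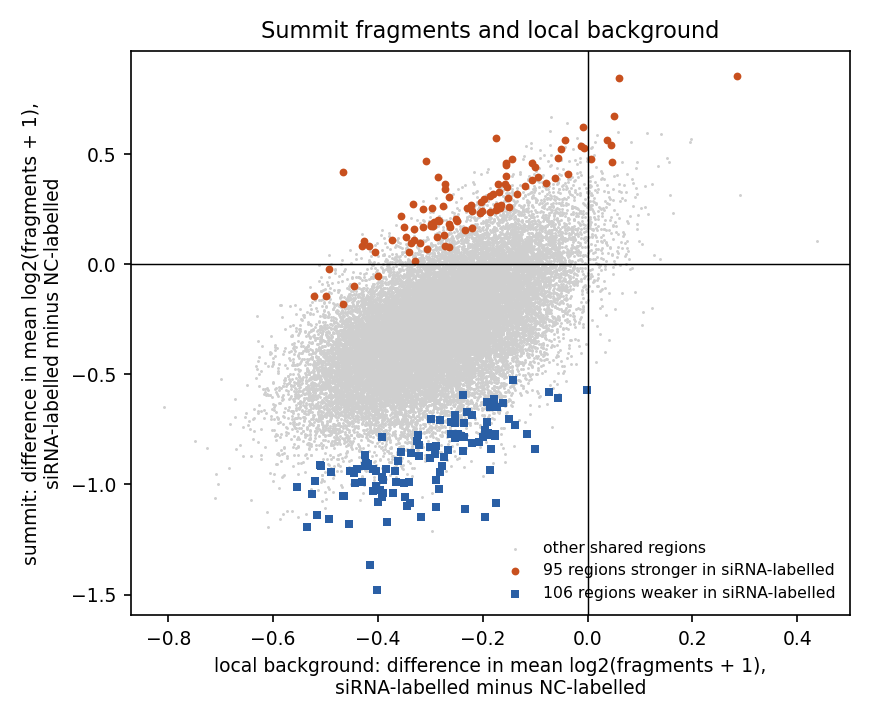
Difference between the group means (siRNA-labelled minus NC-labelled) of log2(summit fragments + 1) on the y axis and of log2(local background + 1) on the x axis. The 95 members (circles) have a median of 0.26 on the y axis and -0.23 on the x axis, and the 106 regions of the mirrored rule (squares) all lie below 0 on the y axis.

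Raw summit fragments were higher in each siRNA-labelled library than in any NC-labelled library at 36 of 95 members, and the nearest values were tied at another 15. That order was found at 0.385% of all shared regions. With fragments divided by the background of the list, 94 of 95 members did not overlap (13.8% of shared regions), the exception being Cgref1. With fragments divided by the library's median over shared regions, 93 of 95 did not overlap (7.69% of shared regions), the exceptions being Eps8 and Thbd. The local background, scaled by the background of the list, was lower without overlap in the siRNA-labelled libraries at 4 of 95 members (11.2% of shared regions) and higher without overlap at 22 of 95 (8.42%). These measures come from the same peak columns that the rule used, so the counts describe the members and carry no independent weight.

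The counting error of a single summit is as large as the differences described. The median summit of the members, 26 fragments in the siRNA-labelled libraries, has a Poisson 95% interval of 17.0 to 38.1, and the median of 21 fragments in the NC-labelled libraries one of 13.0 to 32.1. These intervals cover counting error only, since no molecular identifiers separate duplicates here. No single library set the rule: siRNA-labelled library 1, 2 and 3 was the lowest of its group at 28, 29 and 38 members, and NC-labelled library 1, 2 and 3 the highest at 31, 31 and 33.

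The members were narrower than most shared regions, with a median width of 660 bp, against 742.5 bp in the mirrored set and 799 bp over all shared regions. Their 6 summits spread over a median of 116 bp, against 193.5 bp in the mirrored set and 155 bp over all. At the region of Frmd4a the 6 summits lay within 2 bp, and at those of Trim59 and Cgref1 within 3 and 5 bp. The region nearest Foxa2 had the widest spread, 780 bp. A single peak in every library was found at 88 members (92.6%), against 91.3% of all shared regions, so the choice of the highest peak seldom mattered.

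Gene ends held 18 of 95 members, or 18.9% (exact binomial 95% interval 11.6% to 28.3%), against 30.3% of all shared regions and 11.3% of the mirrored set. Regions inside genes made up 44.2% of the members, against 36.6% of shared regions and 41.5% of the mirrored set, and regions outside genes 36.8%, against 33.2% and 47.2%. No test was made, neighbouring regions are not independent draws, and the sets were not matched for width or strength. With a limit of 1.1 in place of 1.2, 553 regions passed and 28.6% of them lay at gene ends. A RefSeq start site lay within 1000 bp of 18 of 92 members (19.6%), against 26.7% of 28600 shared regions. Promoter windows were overlapped by 17.4%, against 25.02%. The promoter table lacks some start sites, so the start-site and promoter shares may be too low for members and shared regions alike.

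**Figure D5:**
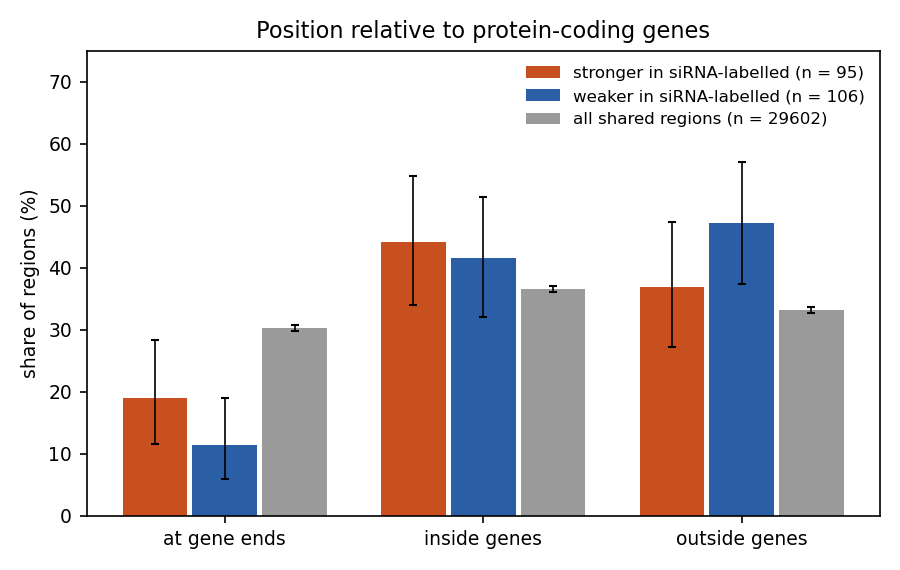
Share of regions in percent (y axis) at gene ends, inside genes and outside genes, for the 95 members, the 106 regions of the mirrored rule and all 29602 shared regions, with exact binomial 95% intervals as bars. Gene ends hold 18.9%, 11.3% and 30.3% of these 3 sets.

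More than 50 kb from any protein-coding gene lay 7 members (7.37%), among them those nearest Tmem17, Hao1, Kif2a, Gadd45g, Mettl15 and Tnfrsf11b, against 12.1% of shared regions and 28.3% of the mirrored set. Chromosome 2 held 11 members (0.459% of its shared regions), and chromosomes 5 and 1 held 9 each (0.508% and 0.504%). Chromosome 3 had 1 (0.0674%), and X had 0 of 516 shared regions. Members did not sit together. Only 1 pair lay within 100 kb, and both of its regions were named by Samhd1, a dNTP hydrolase gene. The one inside the gene (chr2:157099686-157100721) had a relative fold of 0.953, 1.02 and 0.858 in the siRNA-labelled libraries and 0.575, 0.699 and 0.620 in the NC-labelled libraries, and the one 3409 bp outside it (chr2:157138505-157138855) had 0.756, 0.925 and 0.780 in the siRNA-labelled libraries and 0.615, 0.578 and 0.543 in the NC-labelled libraries. The median distance from a member to the next shared region was 9419 bp, against 11410.5 bp over all shared regions.

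Other regions of the same genes did not move with the members as a rule. The 94 genes that name a member also name 496 other shared regions. Of these, 38 (7.66%) were higher and 32 (6.45%) lower in the siRNA-labelled libraries without overlap, close to the 8.69% and 5.61% over all shared regions. At 14 of the 94 genes the member was the only shared region. Around Arhgap26, 20 other shared regions included 1 higher and 1 lower without overlap, and the 6 others of Tmem17 included 0 of each.

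The regions were looked up in 19 lists of 398 genes in all, of which 397 were in the gene table. The lists cover smooth muscle and aneurysm biology, but also ribosomal protein, endothelial, immune, and neuronal and epithelial genes. Genes of all lists together named 1552 shared regions, and 5 of these were members (0.322%, against 0.321% of all shared regions), while 8 belonged to the mirrored set. None of the 283 gene-end regions of list genes was a member, against 18 of all 8958 shared gene-end regions. At so low a share, a count of 0 does not set the list genes apart. The contractile genes had 0 members among 53 shared regions, the SRF, myocardin and MEF2 regulators 0 among 70, and the extracellular matrix genes 0 among 139. Matrix proteases and their inhibitors had 0 among 65, TGF-beta and SMAD genes 0 among 145, AP-1 and immediate-early genes 0 among 188, and cell cycle genes 0 among 55. Angiotensin and oxidative stress genes had 0 among 36, p53 and senescence genes 0 among 66, ARID and chromatin genes 0 among 77, and ribosomal protein genes 0 among 40. The endothelial, immune, and neuronal and epithelial lists had 0 among 28, 9 and 20. At the background share, a list of this size holds less than 1 member, so a count of 0 does not set a list apart.

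The inflammation list held 1 member among 124 shared regions, 11676 bp from Il6, the gene of the cytokine interleukin 6 (chr5:30000717-30001438). Its relative fold was 0.855, 0.777 and 0.768 in the siRNA-labelled libraries and 0.591, 0.545 and 0.511 in the NC-labelled libraries, from 11 to 14 fragments in the siRNA-labelled libraries and 11 to 12 in the NC-labelled libraries. The fragments overlapped, and the local background was 1.36, 1.03 and 1.58 in the siRNA-labelled libraries and 2.00, 2.14 and 2.19 in the NC-labelled libraries. The region at the Il6 gene end (chr5:30012450-30013654) was no member, with 1.22, 1.39 and 1.196 in the siRNA-labelled libraries and 1.19, 1.12 and 1.29 in the NC-labelled libraries, and the groups overlapped there.

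The Hippo list held 1 member among 73 shared regions, 40772 bp inside Vgll4, whose product competes with YAP for TEAD factors. Its relative fold was 0.979, 0.968 and 0.910 in the siRNA-labelled libraries and 0.584, 0.740 and 0.75004 in the NC-labelled libraries (chr6:114901393-114902287). The list did not hold Mob1b, described above. Actn4, the non-muscle alpha-actinin, was the 1 member among 143 shared regions of the actin list and had 1.06, 1.22 and 1.13 in the siRNA-labelled libraries and 0.811, 0.765 and 0.729 in the NC-labelled libraries at a region 26240 bp inside (chr7:28919488-28920337). At the Actn4 gene end the relative fold was 1.62, 1.56 and 1.58 in the siRNA-labelled libraries and 1.56, 1.58 and 1.52 in the NC-labelled libraries, which overlapped between the groups.

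The osteochondrogenic list held 1 member among 82 shared regions, the region 135991 bp from Tnfrsf11b, which encodes osteoprotegerin, the decoy receptor of RANKL (chr15:54114136-54114628). This region had 1.13, 1.13 and 1.15 in the siRNA-labelled libraries and 0.921, 0.741 and 0.588 in the NC-labelled libraries. Its summit held only 12, 13 and 14 fragments in the siRNA-labelled libraries and 11, 9 and 6 in the NC-labelled libraries. The gene-end region of Tnfrsf11b had 0.966, 0.668 and 0.787 in the siRNA-labelled libraries and 1.11, 0.905 and 1.34 in the NC-labelled libraries, and the groups overlapped there. The list of mesenchymal fate factors held 1 member among 139 shared regions.

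Arid3a itself named 3 shared regions, and none was a member. The region at its gene end had a relative fold of 0.572, 0.563 and 0.755 in the siRNA-labelled libraries and 0.701, 0.648 and 0.817 in the NC-labelled libraries. The regions inside the gene had 1.12, 1.09 and 1.08 in the siRNA-labelled libraries and 0.891, 1.03 and 1.07 in the NC-labelled libraries for the first, and 0.708, 0.753 and 0.692 in the siRNA-labelled libraries and 0.628, 0.793 and 0.828 in the NC-labelled libraries for the second. The ratios of the lowest siRNA-labelled to the highest NC-labelled value were 0.689, 1.003 and 0.835.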

How the data were processed

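CUT&Tag for Arid3a was measured in 3 siRNA-labelled and 3 NC-labelled libraries of mouse VSMCs. The tools Bowtie2, Picard and MACS2 and the build mm10 come from the labels, per the submitters' processing notes. Their versions are not given in the sources used. The authors called peaks in each library on its own and deposited 6 lists. For each peak the authors deposited an integer score, the fold at the summit (a ratio over local background), and the p-value and q-value as −log10. These are the authors' own values.

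Peaks of all lists were merged at 1 bp of overlap, and the fold was scaled by each library's median over shared regions. With a pseudocount of 1, fold and −log10 p together gave summit fragments and local background for 99.9% to 100.0% of peaks (relative tolerance 0.002). This rests on the peak caller's usual formula, which the deposited values fit within that tolerance. Read totals were not used, so the background coverage stands for depth. The deposited score was not used, and −log10 q only to rank or filter peaks within a list. Any pair of lists shared 202 to 312 identical intervals, so no list was a copy of another.

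Regions were placed with the RefSeq gene table of GRCm38.p6 (21887 protein-coding genes, without exons) and named by the nearest gene. Promoter sequence of chromosome 18 was not used here, and the promoter table does not hold every start site. Named are the 15 highest ratios, the 10 highest lowest siRNA-labelled values, the 15 highest gene-end regions, regions of list genes, genes with the most members, the 5 regions either side of the limit, and Arid3a. Some regions that this rule names are not reported here. Others are said to be picked after their values were seen. The members and lists were chosen with earlier results of these data known. No p-value was computed. Python 3.11.15, numpy 2.4.6, pandas 2.3.3, scipy 1.17.1 and matplotlib 3.10.9 were used. The solving of fragments and the rule were tested on simulated data. The simulated noise was smaller than the counting error of these summits, so that test says nothing of false calls in these data. Alternatives changed the scaling, the measure, the peak threshold, the merging, the limit, the gene-end window and the libraries used.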

Additional observations from a re-analysis of the deposited data

Results flagged for a closer look

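Peaks in 6 of 6 lists are named after the opposite group, a signal in a column that no comparison used. The sample labels were kept. If the peak names were right, the 95 regions would be stronger in the libraries that were the negative controls.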

How the results depend on the processing

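Of 35 alternative values, 23 stayed within the limits set for a change and 12 did not. For the number of members the limit was a factor of 1.5, and 6 values stayed within it and 11 did not. For the gene-end share the limit was its wide binomial interval of 11.6% to 28.3%, and 17 values stayed within it and 1 did not. The number of members thus moved under most alternatives. The 95 regions became 78 with scaling by the 75th percentile, 76 with the mean and 79 with no scaling (61 of the 95 kept). Summit fragments over the median gave 270 regions, with 60 of the 95 among them. A peak threshold of −log10 q of at least 5 left 61. A limit of 1.1 gave 553 regions (mirrored rule 412) and a limit of 1.5 gave 0 (mirrored rule 4). Leaving out 1 library gave 301 to 397 regions (397, 308 and 345 without siRNA-labelled library 1, 2 and 3, and 308, 301 and 318 without NC-labelled library 1, 2 and 3), since fewer libraries have to pass; the mirrored rule then gave 266 to 419. The 95 regions pass again almost by construction, so this says nothing of their stability. Averaging siRNA-labelled libraries 2 and 3 as 1 sample, chosen after seeing the data, gave 237. The gene-end share of 18.9% ran from 15.8% to 24.5% under the other settings, against 28.6% at the limit of 1.1; without 1 library it was 20% to 24.5%. At the limit of 1.5 no share could be computed. No paired analysis was possible because the results come from a rule without a test. A median summit of 21 to 26 fragments limits what a single region can show.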
